A study of Mus musculus with 8 samples.

Results

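Imprinted genes are transcribed mainly from the allele inherited from a single parent, and 36 of them were followed in mouse embryonic stem cells with and without β-catenin. The members were chosen by name, with earlier results of these data known, and all 36 had a row among the 48440 genes of the count table. By textbook assignment 11 are expressed from the maternal allele, 24 from the paternal allele, and Gnas from either, depending on the transcript. The cells, of 129/Ola background and blastocyst origin, were β-catenin knock-out (CTNNB1-/-) or parental (CTNNB1+/+). They were kept for 72 hours with 3 μM CHIR99021, an inhibitor of the kinase GSK3, or with the vehicle DMSO at 0.3 μl/ml, on gelatin without feeders and in medium with 10% serum. This gave 4 groups of 2 libraries: knock-out with CHIR99021, knock-out with DMSO, parental with CHIR99021 and parental with DMSO. The labels name neither the clone or clones behind the knock-out line nor separate cultures behind the replicates. Genotype and line therefore cannot be told apart, and a p-value reflects only how far these libraries differ among themselves, possibly for technical reasons.

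Parental marks are set as DNA methylation in the germ line at imprinting control regions and kept through early development by the methyltransferase DNMT1, its partner UHRF1 and the zinc-finger proteins ZFP57 and ZFP445 with TRIM28. Most imprinted genes lie in clusters in which a long non-coding RNA or an insulator governs several coding genes. As a class they are known for control of fetal and placental growth, with many paternally expressed members promoting growth and several maternally expressed ones restraining it. The counts do not separate the alleles, so every value here is the sum over both, and loss of imprinting cannot be seen in them. Nor can fewer expressing cells and less RNA per cell be told apart in these bulk libraries.

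Poly(A) RNA libraries held 23650572 to 27680649 estimated counts each. Levels are given as CPM, counts per 1000000 counts of the library after scaling between libraries. Ctnnb1, the deleted gene, stood at 8.70 and 9.42 CPM in knock-out cells with CHIR99021, 7.98 and 10.7 CPM in knock-out cells with DMSO, 813.4 and 843.5 CPM in parental cells with CHIR99021 and 887.5 and 905.6 CPM in parental cells with DMSO, so that genotypes matched their labels. The 8 pluripotency markers summed to between 5154 and 5828 CPM in every library. Among markers of other cells, 5 of 8 trophoblast, 4 of 6 mesoderm, 4 of 6 embryonic fibroblast and 1 of 6 primitive endoderm genes stayed under 1 CPM in all libraries, and Prl3d1, Postn and Dcn had no count in any. None of the 6 neural markers stayed under 1 CPM throughout, and they summed to 55.4 to 118 CPM.

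The 36 genes together made up 2218 to 2255 CPM in knock-out cells with CHIR99021, 2258 to 2302 CPM in knock-out cells with DMSO, 2084 to 2168 CPM in parental cells with CHIR99021 and 2129 to 2132 CPM in parental cells with DMSO. Scaled to the annotated exon length, their levels spanned more than 3 orders of magnitude. Gab1, a docking protein of receptor tyrosine kinases, was the highest at 74.4 CPM per kb on average over the groups, followed by Phlda2 at 49.4, Jade1 at 36.8 and Snrpn at 33.7 CPM per kb. Below them, the genes from Mcts2 at 20.3 to Igf2r at 10.6 CPM per kb included Peg10, Grb10, Cdkn1c, Mest, Rian, Impact, Meg3 and Gnas, whose group means overlap in places. At the bottom were Airn at 0.0854, Magel2 at 0.0580, Plagl1 at 0.0306 and H19 at 0.0225 CPM per kb. Exon length counts all annotated exons, which understates a gene whose main transcript is short.

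**Figure D1:**
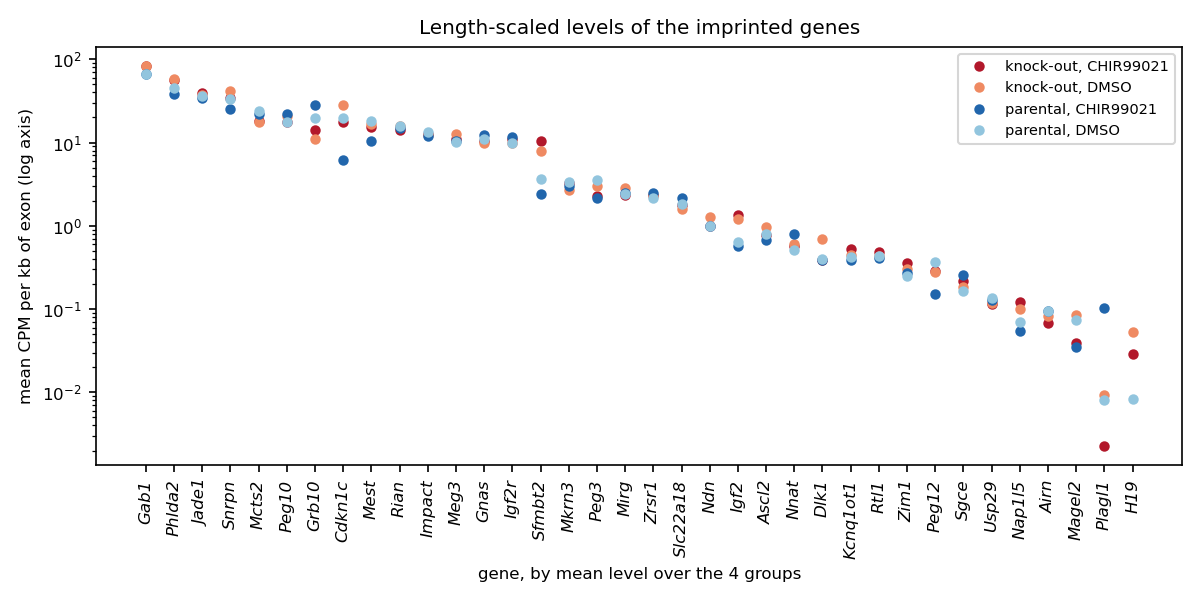
Mean CPM per kb of annotated exon (log axis) of the 36 imprinted genes in the 4 groups, ordered by their average. Gab1 and Phlda2 lead and H19 is last; H19 in parental cells with CHIR99021 was 0 and is not drawn, and the 4 points of Sfmbt2, Cdkn1c and Plagl1 lie farther apart than those of their neighbours.

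A gene was tested if it reached about 10 counts in at least 2 of the 8 libraries, of whatever group, which 33 of the 36 did. H19, Magel2 and Nap1l5 did not pass. H19, the maternally expressed non-coding RNA next to Igf2, had 4 and 0 counts in knock-out cells with CHIR99021, 4 and 3 in knock-out cells with DMSO, 0 and 0 in parental cells with CHIR99021 and 0 and 1 in parental cells with DMSO. It was thus near the limit of detection in all groups. Magel2, a regulator of endosomal protein sorting, had 3 to 12 counts per library, and Nap1l5, a nucleosome assembly protein-like gene, 2 to 8.

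Differences were tested with edgeR's quasi-likelihood test over all 17739 genes that passed the filter, and a gene is said to have risen or fallen where its adjusted p was under 0.05. CHIR99021 against DMSO in the knock-out called 9 of the 36, with 3 higher and 6 lower, where 7.06% of all genes tested were called (2.88% higher, 4.18% lower). In parental cells it called 11, with 4 higher and 7 lower, against 19.4% of all genes (9.1% higher, 10.3% lower). The knock-out against parental cells gave 13 in CHIR99021, 9 higher and 4 lower, against 23.7% of all genes (11.2% higher, 12.5% lower). In DMSO it gave 12, 9 higher and 3 lower, against 6.75% (3.13% higher, 3.62% lower). The interaction, which asks whether the response to CHIR99021 differs between the lines, called 5, with 4 above 0 and Peg10 below it, against 6.13% of all genes (3.22% above, 2.91% below). As a share of the 33 tested members these counts are 27.3%, 33.3%, 39.4%, 36.4% and 15.2%. The 11 and the 13 include Plagl1, which passed the filter on counts only through the group in which it was high. No test of the list was made, and an abundant gene is called more easily than a rare one.

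Some counts were lower in fits that left out 1 library. Such a fit has fewer libraries for every gene. The share of all genes called in it was not computed, here and for the like counts below. In the knock-out, CHIR99021 called 4 without its replicate 1 with CHIR99021 and 5 without its replicate 1 with DMSO. In DMSO, the genotypes differed in 5 members without parental replicate 1. In all, 20 members were called in at least 1 of the 4 pairwise comparisons, 5 of them in every one, and 13 tested members in none. The matching shares over all genes were not computed, so these counts have no background to be read against. Over the tested members the median log2 fold change was 0.00 for CHIR99021 in the knock-out and -0.06 in parental cells, and between genotypes it was 0.08 in CHIR99021 and 0.07 in DMSO. Over all genes tested each of these medians was 0.00.

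**Figure D2:**
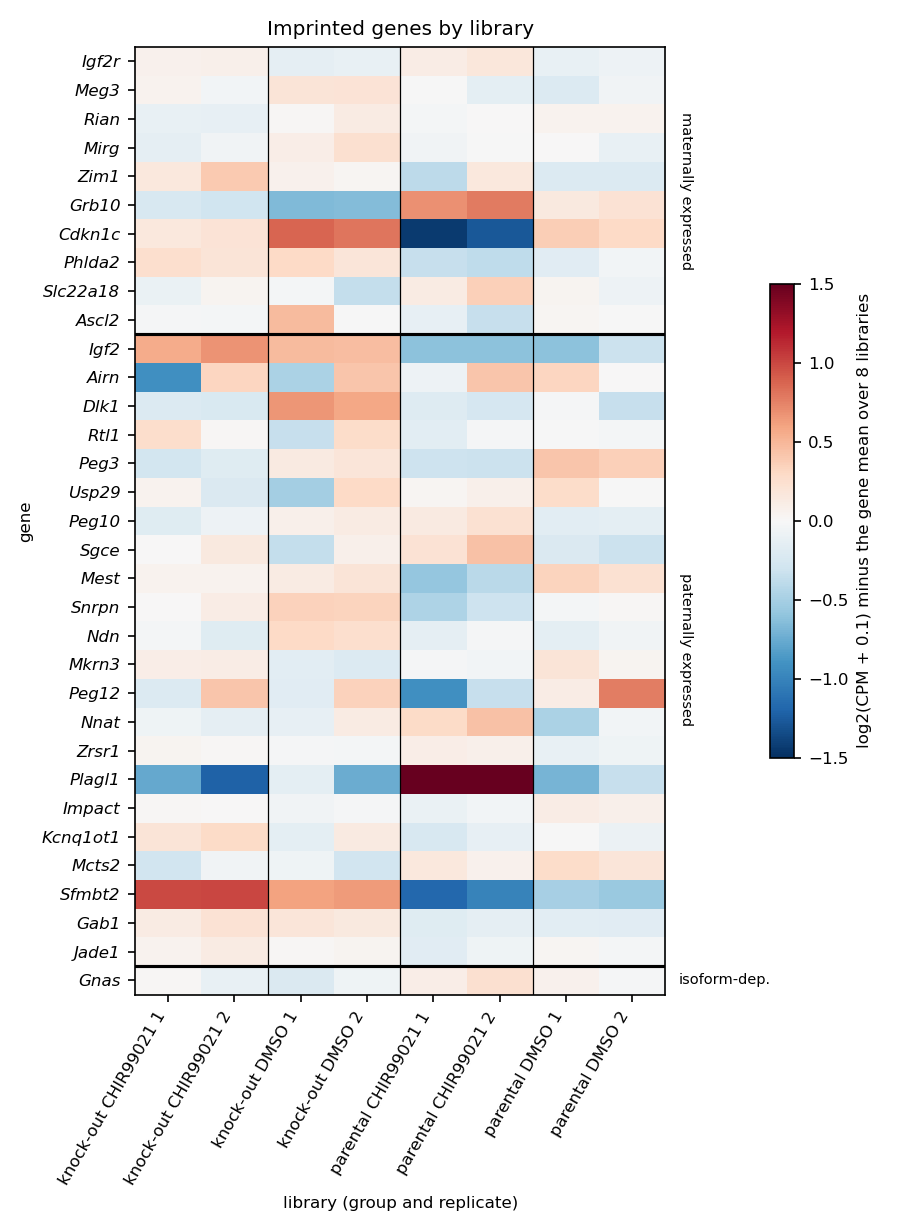
log2(CPM + 0.1) of each tested imprinted gene in the 8 libraries, minus the gene's mean, with maternally expressed genes above the upper line, paternally expressed genes below it and Gnas last (colours end at ±1.5, which Plagl1 exceeds). Replicates carry like colours in Cdkn1c, Grb10 and Sfmbt2, while low genes such as Airn and Usp29 differ as much between replicates as between groups.

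Of the 11 maternally expressed genes, 10 were tested. CHIR99021 called 4 in the knock-out, 40% against 7.06% of all genes, and 4 in parental cells, 40% against 19.4%. The knock-out against parental cells called 3 in CHIR99021, 30% against 23.7%, and 4 in DMSO, 40% against 6.75%. The count in the knock-out was 2 without either of its CHIR99021 replicates, and that in DMSO was 2 without parental replicate 1. The greatest called change was in Cdkn1c (chromosome 7, 143458339 to 143461050, GRCm38), which encodes p57, a cyclin-dependent kinase inhibitor that restrains growth. Cdkn1c had 35.8 and 36.8 CPM in knock-out cells with CHIR99021, 58.7 and 56.0 CPM in knock-out cells with DMSO, 11.8 and 13.1 CPM in parental cells with CHIR99021 and 41.3 and 39.3 CPM in parental cells with DMSO. The 4 groups did not overlap, parental cells with CHIR99021 being lowest and the knock-out with DMSO highest. Cdkn1c fell with CHIR99021, with a log2 fold change of -0.66 ± 0.06 (SE; edgeR adjusted p = 0.000324) in the knock-out and -1.69 ± 0.07 (adjusted p = 4.24e-08) in parental cells. The fall was smaller in the knock-out by 1.04 ± 0.09 on the log2 scale (interaction, adjusted p = 6.7e-05). Against parental cells the knock-out was higher by 1.55 ± 0.07 in CHIR99021 and by 0.51 ± 0.06 in DMSO (adjusted p = 6.6e-08 and 0.000863).

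Phlda2 (chromosome 7, 143501545 to 143503150) lies in the same cluster and encodes a pleckstrin-homology protein that limits placental growth. It had 65.2 and 62.7 CPM in knock-out cells with CHIR99021, 67.2 and 61.7 CPM in knock-out cells with DMSO, 42.8 and 42.1 CPM in parental cells with CHIR99021 and 48.6 and 53.2 CPM in parental cells with DMSO. All knock-out libraries were above all parental ones, by 0.59 ± 0.06 (adjusted p = 4.69e-05) in CHIR99021 and 0.34 ± 0.06 (adjusted p = 0.00763) in DMSO. The call in DMSO was lost without knock-out DMSO replicate 1 (adjusted p = 0.0545) or parental DMSO replicate 1 (0.0866). CHIR99021 gave -0.01 ± 0.06 in the knock-out, with a 95% interval of -0.17 to 0.15, and -0.26 ± 0.06 (adjusted p = 0.0123) in parental cells. The call in parental cells was lost without parental CHIR99021 replicate 1 (0.0534) or 2 (0.0712) or parental DMSO replicate 2 (0.121), and the interaction did not pass (adjusted p = 0.119). Slc22a18, an organic cation transporter-like gene of this cluster, ran from 2.40 to 4.01 CPM and Ascl2, a transcription factor of the trophoblast lineage, from 1.004 to 1.85 CPM, and neither was called in any comparison.

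Grb10 (chromosome 11, 11930508 to 12038683), an adaptor that dampens insulin and IGF signalling, is maternally expressed in most tissues and paternally in neurons. Its level was 132 and 127 CPM in knock-out cells with CHIR99021, 98.6 and 99.5 CPM in knock-out cells with DMSO, 251 and 268 CPM in parental cells with CHIR99021 and 173 and 182 CPM in parental cells with DMSO. Every knock-out library was below every parental one, and in each line the libraries with CHIR99021 were above those with DMSO. Grb10 rose with CHIR99021 by 0.38 ± 0.05 (adjusted p = 0.00116) in the knock-out and by 0.55 ± 0.04 (adjusted p = 7.72e-06) in parental cells. The difference between these responses was -0.16 ± 0.06 (adjusted p = 0.175, 95% interval -0.34 to 0.01). The knock-out was lower than parental cells by a log2 fold change of -1.01 ± 0.05 in CHIR99021 and -0.84 ± 0.05 in DMSO (adjusted p = 6.86e-08 and 3.67e-06).

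Igf2r (chromosome 17, 12682406 to 12769664), the receptor that clears IGF2 from the cell surface, had 103 and 104 CPM in knock-out cells with CHIR99021, 90.3 and 91.6 CPM in knock-out cells with DMSO, 107 and 111 CPM in parental cells with CHIR99021 and 91.8 and 93.4 CPM in parental cells with DMSO. The levels with CHIR99021 were thus higher in each line, with log2 fold changes of 0.19 ± 0.04 (adjusted p = 0.0206) in the knock-out and 0.24 ± 0.04 (adjusted p = 0.0018) in parental cells. The rise in the knock-out was not called without knock-out CHIR99021 replicate 1 (adjusted p = 0.114) or 2 (0.136) or knock-out DMSO replicate 1 (0.132). Between genotypes Igf2r differed by -0.08 ± 0.04 in CHIR99021 and -0.03 ± 0.04 in DMSO, and neither passed. Airn, the paternally expressed antisense RNA that silences Igf2r in cis, had 3 to 11 counts per library and was not called.

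Meg3, Rian and Mirg are maternally expressed non-coding RNAs transcribed in the same direction on chromosome 12, where silencing of the cluster is a known fault of some cultured pluripotent stem cells. Here all 3 were expressed in every library. Rian, which hosts small nucleolar RNAs, had 255 and 254 CPM in knock-out cells with CHIR99021, 279 and 299.9 CPM in knock-out cells with DMSO, 271 and 278 CPM in parental cells with CHIR99021 and 286 and 286 CPM in parental cells with DMSO. Meg3 (109541001 to 109571726) had 208 and 195 CPM in knock-out cells with CHIR99021, 230.3 and 232 CPM in knock-out cells with DMSO, 201 and 181 CPM in parental cells with CHIR99021 and 174 and 193 CPM in parental cells with DMSO. Differences were small beside those of Cdkn1c and Grb10. With DMSO, Meg3 was higher in the knock-out by 0.33 ± 0.06 (adjusted p = 0.00875, and 0.0905 without parental DMSO replicate 1). In the knock-out Rian fell with CHIR99021, with a log2 fold change of -0.18 ± 0.04 (adjusted p = 0.0246), a call lost without knock-out CHIR99021 replicate 1 (0.117) or 2 (0.152), without knock-out DMSO replicate 2 (0.0868) and in a fit of the compared groups alone (0.0587). Without knock-out DMSO replicate 1 or 2, Rian was lower in the knock-out than in parental cells in CHIR99021 (adjusted p = 0.0415 and 0.0389), where the full fit gave 0.0867. CHIR99021 in the knock-out gave Meg3 -0.20 ± 0.06 and Mirg, a host of microRNAs at 16.7 to 21.6 CPM, -0.26 ± 0.08, neither of them called (adjusted p = 0.0754 and 0.0617). Meg3 was called there with no filter (0.000571), with DESeq2 (0.0271) and in a fit of the compared groups alone (0.0429), and Mirg with no filter (0.0352). The last maternally expressed member, Zim1, a zinc-finger gene beside Peg3, ran from 1.76 to 3.13 CPM and was not called.

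Of the 24 paternally expressed genes, 22 were tested. CHIR99021 called 5 in the knock-out, 22.7% against 7.06% of all genes, and 7 in parental cells, 31.8% against 19.4%. The knock-out against parental cells called 9 in CHIR99021, 40.9% against 23.7%, and 8 in DMSO, 36.4% against 6.75%. The count in the knock-out was 2 without its CHIR99021 replicate 1 or its DMSO replicate 1. That in DMSO was 4 without knock-out replicate 2 or parental replicate 2 and 3 without parental replicate 1. Sfmbt2 (chromosome 2, 10370510 to 10595253), a Polycomb-type repressor whose imprint in mouse extraembryonic tissue depends on histone methylation, differed widely between the lines. It had 94.0 and 94.8 CPM in knock-out cells with CHIR99021, 72.4 and 74.0 CPM in knock-out cells with DMSO, 21.0 and 23.6 CPM in parental cells with CHIR99021 and 33.6 and 32.2 CPM in parental cells with DMSO. All knock-out libraries were above all parental ones, and CHIR99021 went with a higher level in the knock-out and a lower one in parental cells. The knock-out exceeded parental cells by 2.08 ± 0.06 in CHIR99021, a 4.24-fold difference, and by 1.15 ± 0.06 in DMSO (adjusted p = 2.54e-09 and 2.31e-06). CHIR99021 raised Sfmbt2 by 0.37 ± 0.05 (adjusted p = 0.00308) in the knock-out and lowered it by a log2 fold change of -0.56 ± 0.06 (adjusted p = 9.59e-05) in parental cells. The interaction was 0.93 ± 0.08 (adjusted p = 7.15e-05).

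Gab1 and Jade1 share with Sfmbt2 the histone-based imprint in mouse extraembryonic tissue. They and Sfmbt2 are counted here as paternally expressed. Whether they are so in these embryonic stem cells cannot be told from the counts. Gab1 (chromosome 8, 80764438 to 80880519) had 408 and 436 CPM in knock-out cells with CHIR99021, 426 and 416 CPM in knock-out cells with DMSO, 330.3 and 342 CPM in parental cells with CHIR99021 and 336 and 333 CPM in parental cells with DMSO. It was higher in the knock-out by 0.33 ± 0.04 in each medium (adjusted p = 0.000192 in CHIR99021 and 0.00118 in DMSO), and CHIR99021 was called in neither line (95% interval -0.11 to 0.12 in each). Jade1, a subunit of a histone acetyltransferase complex, had 324 and 339 CPM in knock-out cells with CHIR99021, 315 and 320.0 CPM in knock-out cells with DMSO, 278 and 299 CPM in parental cells with CHIR99021 and 318 and 305 CPM in parental cells with DMSO. It was higher in the knock-out in CHIR99021 by 0.20 ± 0.05 (adjusted p = 0.00811), a call lost without knock-out CHIR99021 replicate 2 (0.0759) or parental CHIR99021 replicate 1 (0.0843).

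**Figure D3:**
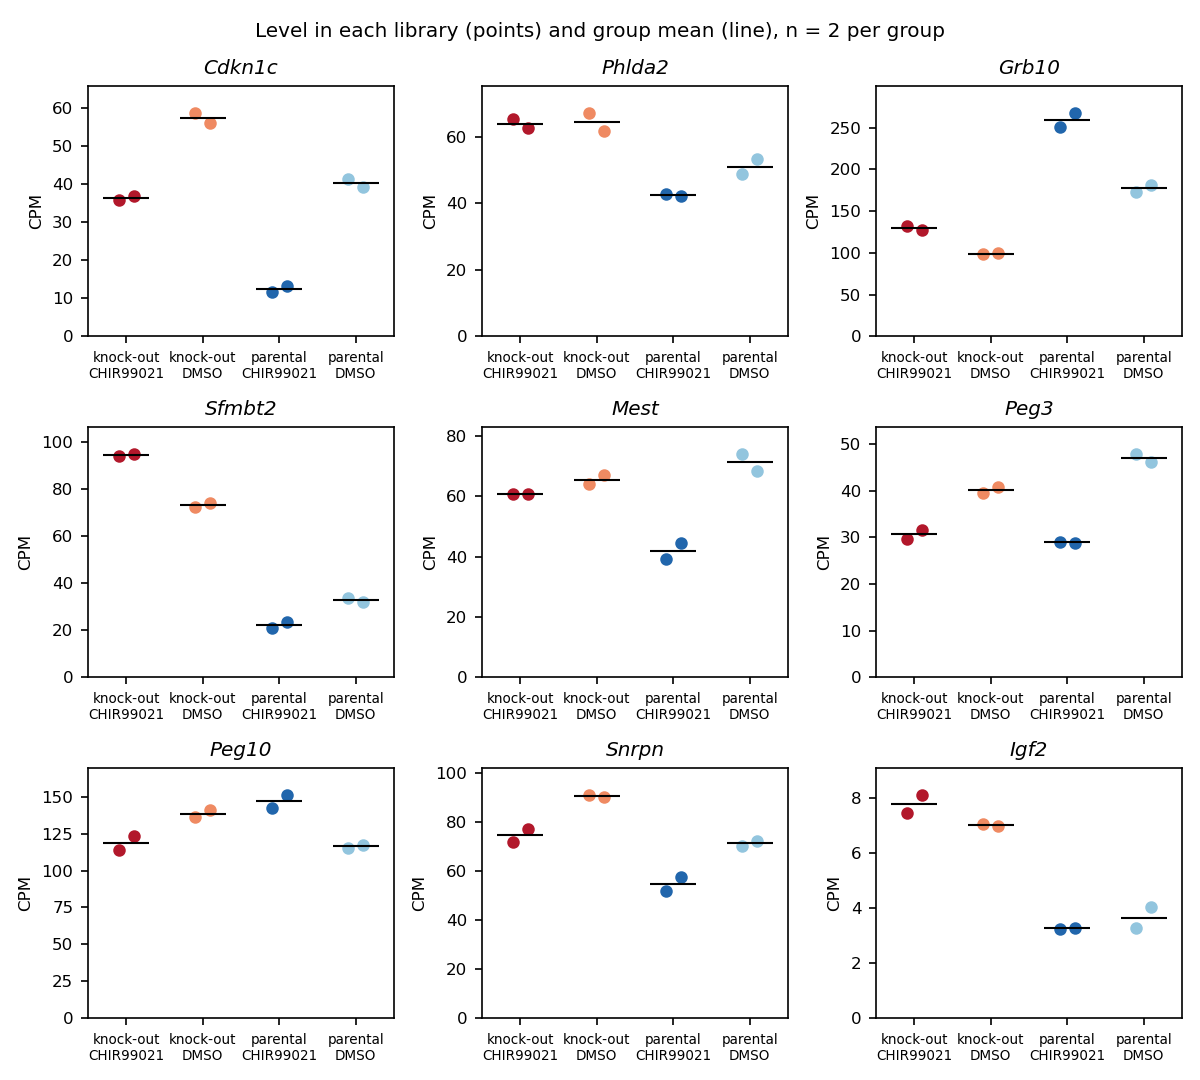
CPM of 9 imprinted genes in each of the 8 libraries (points, linear axes from 0) with the group mean (line), knock-out groups left of parental ones and CHIR99021 left of DMSO. Sfmbt2 and Igf2 are higher and Grb10 lower in every knock-out library, Mest is lowest in parental cells with CHIR99021, and Peg10 is highest there.

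Mest, Peg3 and Snrpn are paternally expressed genes whose promoters lie at or near imprinting control regions. Mest (chromosome 6, 30723547 to 30748465), a hydrolase-fold protein of embryonic mesoderm, had 60.8 and 60.7 CPM in knock-out cells with CHIR99021, 64.1 and 67.0 CPM in knock-out cells with DMSO, 39.1 and 44.4 CPM in parental cells with CHIR99021 and 74.1 and 68.5 CPM in parental cells with DMSO. Parental cells with CHIR99021 stood apart below the other 3 groups. The log2 fold change with CHIR99021 was -0.11 ± 0.06 (adjusted p = 0.334) in the knock-out and -0.77 ± 0.07 (adjusted p = 9.5e-06) in parental cells, and the difference of 0.66 ± 0.09 passed (interaction, adjusted p = 0.00121). In CHIR99021 the knock-out was therefore higher by 0.54 ± 0.07 (adjusted p = 0.00014), against -0.12 ± 0.06 (adjusted p = 0.306) in DMSO.

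Peg3 (chromosome 7, 6703892 to 6730431), a large zinc-finger repressor, had 29.8 and 31.7 CPM in knock-out cells with CHIR99021, 39.5 and 40.9 CPM in knock-out cells with DMSO, 29.1 and 28.8 CPM in parental cells with CHIR99021 and 48.0 and 46.1 CPM in parental cells with DMSO. It fell with CHIR99021 in each line, with log2 fold changes of -0.39 ± 0.06 (adjusted p = 0.00298) in the knock-out and -0.70 ± 0.06 (adjusted p = 7.71e-06) in parental cells. In DMSO the knock-out was lower, with a log2 fold change of -0.23 ± 0.06 (adjusted p = 0.0356), a call lost when any 1 library of that comparison was left out (adjusted p = 0.155 and 0.0741 without knock-out replicates 1 and 2, and 0.241 and 0.105 without parental replicates 1 and 2). It was also lost without knock-out CHIR99021 replicate 1 (0.0515), with DESeq2 (0.153) and in a fit of the compared groups alone (0.0558). The interaction of 0.31 ± 0.08 (adjusted p = 0.0455) was lost when any 1 of the 8 libraries was left out (0.0542 to 0.17) and with DESeq2 (0.216). Usp29, a ubiquitin-specific protease gene that starts head to head with Peg3, was low at 1.52 to 2.75 CPM, and its log2 fold changes lay between -0.20 and -0.02 in the 4 pairwise comparisons, with none of them called.

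Snrpn (chromosome 7, 59982495 to 60140219) encodes SmN, a splicing protein, and starts at the control region of the Prader-Willi cluster. It had 71.7 and 77.0 CPM in knock-out cells with CHIR99021, 90.9 and 90.1 CPM in knock-out cells with DMSO, 51.8 and 57.5 CPM in parental cells with CHIR99021 and 70.1 and 72.1 CPM in parental cells with DMSO. It fell with CHIR99021 by 0.28 on the log2 scale (adjusted p = 0.0139) in the knock-out and by 0.38 (adjusted p = 0.000845) in parental cells, and was higher in the knock-out by 0.44 ± 0.06 in CHIR99021 and 0.35 ± 0.06 in DMSO (adjusted p = 0.000252 and 0.00502). The first of these was lost without knock-out CHIR99021 replicate 1 (adjusted p = 0.123) or knock-out DMSO replicate 1 (0.0900), and the last without parental DMSO replicate 1 (0.0519). The other genes of the cluster were low and not called, with Mkrn3, a makorin RING-finger gene, at 6.75 to 8.93 CPM, Ndn, which encodes necdin, at 3.44 to 4.82 CPM and Peg12 at 0.31 to 1.20 CPM. Peg12, a FRAT-type gene and so a relative of a GSK3-binding regulator of the Wnt pathway, had 8 and 12 counts in parental cells with CHIR99021, against 17 and 29 in parental cells with DMSO. Its log2 fold change of -1.26 ± 0.46 did not pass (adjusted p = 0.082) but did with the replicate number as a block (0.0434) and with no filter on low counts (0.0274). Annotated transcripts of Snrpn share 34.5% of their 31-base words with other genes, mostly Gm38393, with 323 to 546 counts, and Snurf, so its count depends on how the authors' software divided reads among them.

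Peg10 (chromosome 6, 4747306 to 4760517), a retrotransposon-derived gag-pol gene needed for the placenta, moved opposite ways in the lines. It had 114 and 123 CPM in knock-out cells with CHIR99021, 136 and 141 CPM in knock-out cells with DMSO, 142 and 151 CPM in parental cells with CHIR99021 and 115 and 117 CPM in parental cells with DMSO. With CHIR99021 Peg10 fell in the knock-out (log2 fold change -0.22 ± 0.05, adjusted p = 0.0222) and rose in parental cells (0.34 ± 0.05, adjusted p = 0.00066), with an interaction of -0.56 ± 0.07 (adjusted p = 0.000675). The knock-out was lower by a log2 fold change of -0.31 ± 0.05 in CHIR99021 and higher by 0.25 ± 0.05 in DMSO (adjusted p = 0.00103 and 0.0132). The fall in the knock-out was lost without its CHIR99021 replicate 1 (adjusted p = 0.169) or its DMSO replicate 1 (0.0783) or 2 (0.0832). The difference in DMSO was lost without knock-out replicate 2 (0.0740) or parental replicate 1 (0.1003) or 2 (0.0636). Sgce, which encodes ε-sarcoglycan and starts beside Peg10 on the other strand, had 1.67 to 2.97 CPM and was not called. Its CHIR99021 log2 fold change in parental cells was 0.63 ± 0.22 (adjusted p = 0.0713).

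**Figure D4:**
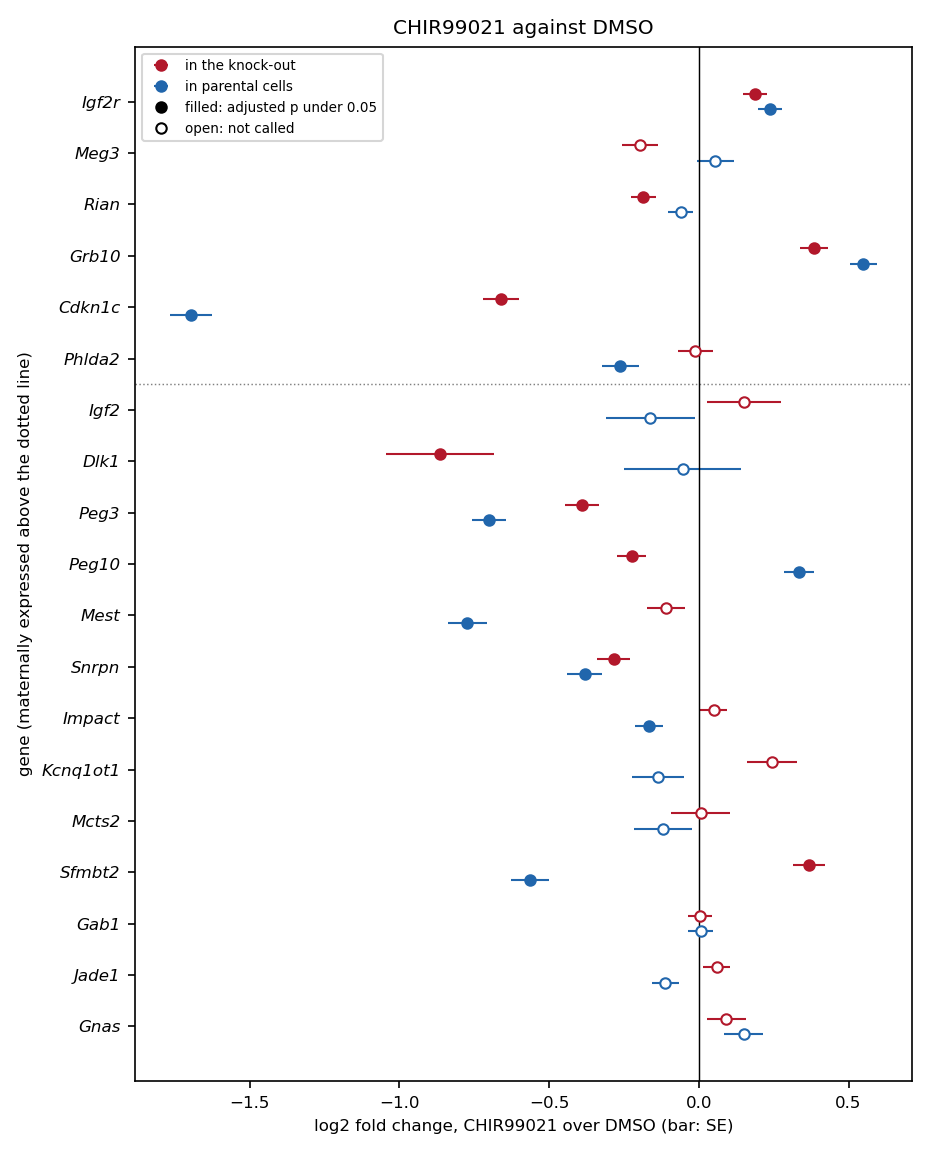
log2 fold change of CHIR99021 over DMSO (points, bars are SE) in the knock-out (red, upper) and in parental cells (blue, lower) for 19 imprinted genes called in at least 1 pairwise comparison, Plagl1 left out for its few counts. Filled points passed an adjusted p under 0.05; Peg10 and Sfmbt2 have filled points on opposite sides of 0, and Cdkn1c has the lowest values in parental cells.

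Igf2 and Dlk1 are growth ligands of the paternal allele. Igf2 (chromosome 7, 142650766 to 142666816), a fetal growth factor, had 7.46 and 8.11 CPM in knock-out cells with CHIR99021, 7.03 and 6.98 CPM in knock-out cells with DMSO, 3.26 and 3.26 CPM in parental cells with CHIR99021 and 3.26 and 4.02 CPM in parental cells with DMSO. The genotypes did not overlap. The knock-out was higher by 1.25 ± 0.14 (adjusted p = 7.15e-05) in CHIR99021 and by 0.94 ± 0.14 (adjusted p = 0.00269) in DMSO, and CHIR99021 gave 0.15 ± 0.12 in the knock-out and -0.16 ± 0.15 in parental cells, neither called. Of its 31-base words 63.1% recur in other genes, mostly in Gm49394, which has no row in the count table. Dlk1, a membrane-bound Notch-family ligand at the Meg3 cluster, was low, with 2.20 and 2.16 CPM in knock-out cells with CHIR99021, 4.10 and 3.85 CPM in knock-out cells with DMSO, 2.22 and 2.13 CPM in parental cells with CHIR99021 and 2.53 and 1.99 CPM in parental cells with DMSO. Only the knock-out with DMSO stood above the others, by 0.81 ± 0.18 over parental cells in DMSO (adjusted p = 0.0242). CHIR99021 gave -0.86 ± 0.18 (adjusted p = 0.0185) in the knock-out and -0.05 ± 0.20 in parental cells, and the interaction did not pass (adjusted p = 0.107). The higher level in DMSO was not called without knock-out DMSO replicate 1 (adjusted p = 0.112) or 2 (0.0730) or parental DMSO replicate 1 (0.0553) or 2 (0.159). The fall in the knock-out was not called without its CHIR99021 replicate 1 (0.103) or 2 (0.116) or its DMSO replicate 1 (0.122). Rtl1, a retrotransposon-derived gene of the same cluster, ran from 2.18 to 3.40 CPM and was not called.

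Plagl1 (chromosome 10, 13060504 to 13131694), a zinc-finger transcription factor that regulates other imprinted genes in the mouse, was nearly silent outside 1 group. It had 1 and 0 counts in knock-out cells with CHIR99021, 3 and 1 in knock-out cells with DMSO, 19 and 21 in parental cells with CHIR99021 and 1 and 2 in parental cells with DMSO. In parental cells CHIR99021 gave a sum of 40 counts, against 3 with DMSO, and a ratio of 12.6 with a 95% counting interval of 4.02 to 63.8 (edgeR adjusted p = 0.00502, and 0.0705 without parental DMSO replicate 1). Plagl1 passed the filter on counts only through the group in which it was high, so these p-values depend on the same counts as the filter. The same holds for its place in the counts of members, and of paternally expressed members, called for CHIR99021 in parental cells and between genotypes in CHIR99021. In CHIR99021 the knock-out had 1 count against 40 in parental cells, a ratio of 0.0231 with an interval of 0.000572 to 0.137 (adjusted p = 0.00135). The interaction missed the threshold (adjusted p = 0.0638) but passed with limma-voom (0.0307) and with no filter on low counts (0.0269). Even at its highest the level was 0.878 CPM.

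Kcnq1ot1 (chromosome 7, 143203458 to 143296549) is the long antisense RNA that represses Cdkn1c, Phlda2 and Slc22a18 in cis on the paternal chromosome. It had 47.1 and 50.05 CPM in knock-out cells with CHIR99021, 37.0 and 45.0 CPM in knock-out cells with DMSO, 34.8 and 37.6 CPM in parental cells with CHIR99021 and 40.9 and 38.5 CPM in parental cells with DMSO. In CHIR99021 it was higher in the knock-out by 0.42 ± 0.09 (adjusted p = 0.0043), the comparison in which Cdkn1c and Phlda2 were also higher. In DMSO, where Cdkn1c and Phlda2 were higher too, Kcnq1ot1 was at 0.05 ± 0.09 (adjusted p = 0.829). CHIR99021 in parental cells, where Cdkn1c and Phlda2 fell, gave it -0.14 ± 0.09 (adjusted p = 0.325). A link between these values was not tested. CHIR99021 in the knock-out gave 0.24 ± 0.08 (adjusted p = 0.11) and the interaction 0.38 ± 0.12 (0.0983). Without knock-out DMSO replicate 2 these passed (0.0163 and 0.0127), as they did with no filter (0.00667 and 0.0015). Impact, an inhibitor of the eIF2α kinase GCN2, ran from 60.5 to 70.0 CPM. It fell with CHIR99021 in parental cells, with a log2 fold change of -0.17 ± 0.05 (adjusted p = 0.0276), a call lost when any 1 library of that comparison was left out (0.167 and 0.0591 without CHIR99021 replicates 1 and 2, 0.156 and 0.0773 without DMSO replicates 1 and 2) and with DESeq2 (0.131).

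**Figure D5:**
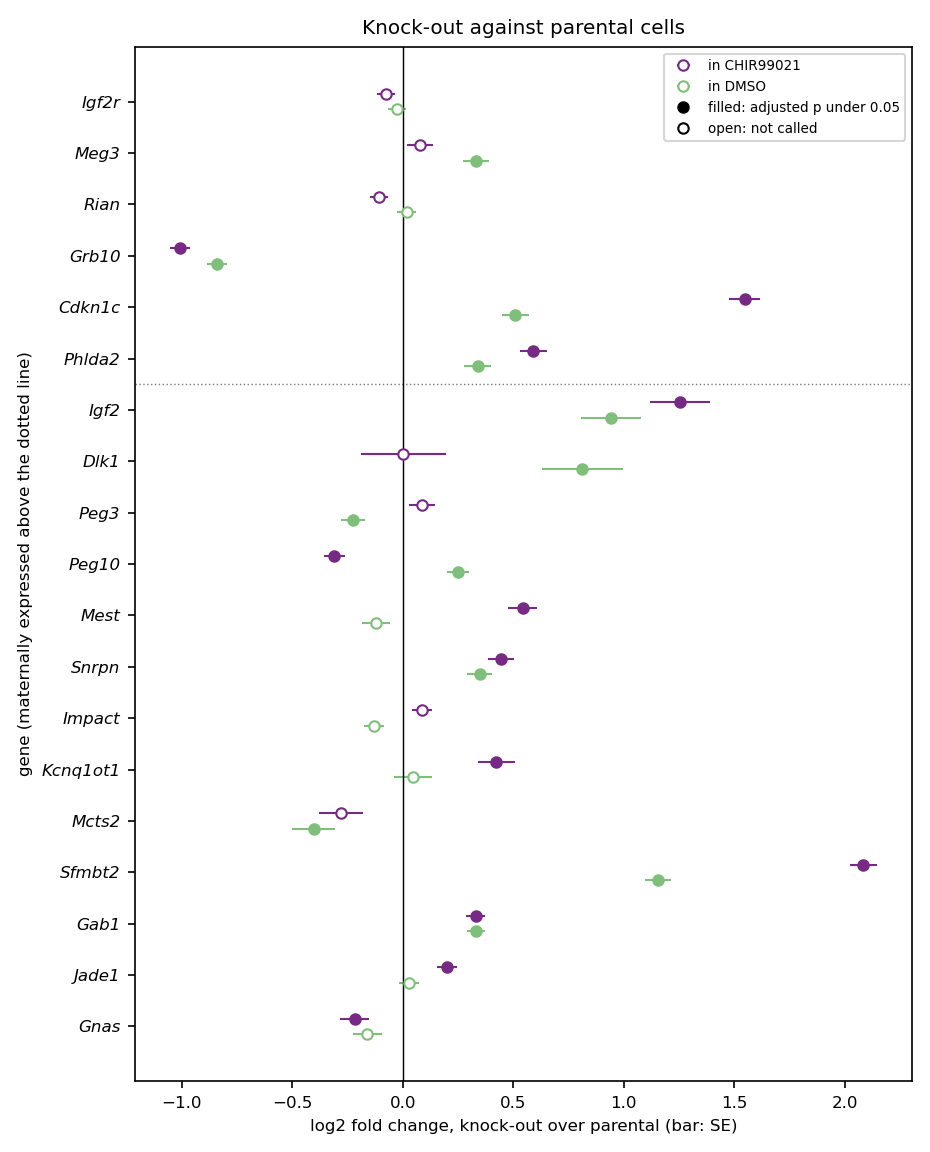
log2 fold change of the knock-out over parental cells (points, bars are SE) in CHIR99021 (purple, upper) and in DMSO (green, lower) for the same 19 genes, filled where the adjusted p was under 0.05. Sfmbt2 and Igf2 lie right of 0 and Grb10 left of it under each condition, and Peg10 changes side.

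Mcts2, Nnat and Gnas lie on distal chromosome 2, where unrelated genes were also lower in the knock-out. Mcts2 (152687035 to 152687946), a retrogene for a translation re-initiation factor inside H13, had 15.1 and 17.8 CPM in knock-out cells with CHIR99021, 17.6 and 15.03 CPM in knock-out cells with DMSO, 20.5 and 19.2 CPM in parental cells with CHIR99021 and 22.3 and 20.8 CPM in parental cells with DMSO. Every knock-out library was below every parental one. The log2 fold change was -0.40 ± 0.10 in DMSO (adjusted p = 0.0343) and -0.28 ± 0.10 in CHIR99021 (adjusted p = 0.0626). The call in DMSO was lost without knock-out DMSO replicate 2 (0.179), parental DMSO replicate 1 (0.206) or 2 (0.0854) or parental CHIR99021 replicate 1 (0.0514) and with DESeq2 (0.0628), and the value in CHIR99021 was called without knock-out CHIR99021 replicate 2 (0.0366) or knock-out DMSO replicate 2 (0.0491). Gnas (174284320 to 174346744), which encodes the stimulatory G protein α subunit and imprinted variants of it, had 123 and 113 CPM in knock-out cells with CHIR99021, 105 and 116 CPM in knock-out cells with DMSO, 129.9 and 144 CPM in parental cells with CHIR99021 and 127 and 119.96 CPM in parental cells with DMSO. In CHIR99021 the knock-out was lower by a log2 fold change of -0.22 ± 0.07 (adjusted p = 0.0341), a call lost without knock-out CHIR99021 replicate 2 (0.256) or parental CHIR99021 replicate 2 (0.227). The 145 other tested genes within 5 Mb of Mcts2 had a median log2 fold change of -0.26 in CHIR99021 and -0.19 in DMSO, and the 91 around Gnas -0.21 and -0.22. Around every other called member the neighbours' medians were between -0.08 and 0.17. Whether the region explains the values of Mcts2 and Gnas was not tested. Nnat, a proteolipid of neuroendocrine cells, had 0.77 to 1.55 CPM and Zrsr1, a U2AF-type splicing factor retrogene on chromosome 11, 9.62 to 11.2 CPM, and neither was called.

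Seen by response, 7 members were called for CHIR99021 in each line. Cdkn1c, Peg3 and Snrpn fell and Grb10 and Igf2r rose in each, while Peg10 and Sfmbt2 went opposite ways. The knock-out against parental cells called 8 in CHIR99021 and in DMSO alike. Of these, Sfmbt2, Igf2, Gab1, Snrpn, Cdkn1c and Phlda2 were higher and Grb10 lower under each condition, and Peg10 changed side. The share of all genes called in both lines or under both conditions was not computed. The interaction called Cdkn1c, Sfmbt2, Mest, Peg3 and Peg10. For Cdkn1c, Mest and Peg3 the fall with CHIR99021 was greater in parental cells, and of the 5 interactions that of Peg3 was not called once any library was left out. The 13 tested members called nowhere had levels of 0.107 to 21.6 CPM and pairwise log2 fold changes of -1.26 to 0.88 with SE of 0.08 to 0.70. The SE was as small as in some called members for Mirg and Zrsr1, at 0.08, and for Mkrn3, at 0.10, and it was 0.14 or more for the other 10.

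Markers of other cells moved with CHIR99021 in parental cells, some of them also in the knock-out, and some between genotypes. The trophoblast list summed to 33.4 and 33.7 CPM in parental cells with CHIR99021, against 3.35 to 4.57 CPM in the other 3 groups. Nearly all of it was Eomes, and 5 of the 8 genes, Prl3d1 at 0 among them, stayed under 1 CPM. With CHIR99021 in parental cells, 2 of its 4 tested genes were called higher. The other 2 were not called, among them Ascl2 with a log2 fold change of -0.25 ± 0.28. Cdx2 had 1.34 and 1.80 CPM in parental cells with CHIR99021, against at most 0.44 CPM elsewhere. The mesoderm list summed to 13.1 and 14.7 CPM there, against 2.32 to 3.19 CPM elsewhere, and the excess was T, at 10.4 and 12.3 CPM, the 1 gene called of 4 tested. The neural list went the other way, with 55.4 CPM in each library of parental cells with CHIR99021, against 93.3 to 118 CPM in the other groups. All 6 of its genes fell with CHIR99021 in parental cells, and 3 of them fell in the knock-out too. In CHIR99021, 4 were higher in the knock-out than in parental cells. The primitive endoderm list summed to 28.2 and 30.8 CPM in knock-out cells with CHIR99021, 30.7 and 31.5 CPM in knock-out cells with DMSO, 13.4 and 14.8 CPM in parental cells with CHIR99021 and 22.5 and 23.1 CPM in parental cells with DMSO. With CHIR99021 in parental cells, 2 of its 5 tested genes were called, Sox7 lower and Pdgfra higher. Between genotypes 3 of the 5 were higher in the knock-out under each condition, Gata4, Dab2 and Sox7 in CHIR99021 and Gata4, Dab2 and Pdgfra in DMSO, the comparisons in which Sfmbt2, Igf2 and Gab1 were also higher. So was Thy1, 1 of the 2 fibroblast markers tested, under each condition. The part of these shifts in the changes of the imprinted genes was not tested. Pluripotency markers summed to 5154 and 5195 CPM in knock-out cells with CHIR99021, against 5419 and 5622 CPM with DMSO. In parental cells they summed to 5279 and 5417 CPM with CHIR99021, against 5815 and 5828 CPM with DMSO. With CHIR99021, 2 of the 8 were called in the knock-out, 25% against 7.06% of all genes. In parental cells 6 were called, 75% against 19.4%, and all these calls were lower.

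Among 27 genes that keep or remove the methylation marks, all tested, CHIR99021 called 4 in the knock-out (1 higher, 3 lower), which is 14.8% against 7.06% of all genes, and 10 in parental cells (2 higher, 8 lower), 37% against 19.4%. The knock-out against parental cells called 10 in CHIR99021 (7 higher, 3 lower), 37% against 23.7%, and 3 in DMSO (2 higher, 1 lower), 11.1% against 6.75%. The median absolute log2 fold change of the list was below that of all genes in each of the 4, for example 0.14 against 0.18 for CHIR99021 in parental cells. Dnmt3l, the cofactor of the de novo enzymes, had 139 and 142 CPM in knock-out cells with CHIR99021, 176 and 161 CPM in knock-out cells with DMSO, 47.7 and 46.5 CPM in parental cells with CHIR99021 and 75.8 and 75.2 CPM in parental cells with DMSO, and so was higher in the knock-out by 1.58 ± 0.05 in CHIR99021 and 1.16 ± 0.05 in DMSO (adjusted p = 6.21e-09 and 9.44e-07). Dnmt3a, a de novo methyltransferase, was lower with CHIR99021, with log2 fold changes of -0.32 ± 0.05 in the knock-out and -1.05 ± 0.05 in parental cells (adjusted p = 0.0029 and 1.4e-07). Tet1, which oxidises methylcytosine, was at -0.04 ± 0.04 and -0.51 ± 0.04 in the same order, called in parental cells (adjusted p = 3.77e-06), and Tet3 at -0.01 ± 0.07 and -0.49 ± 0.07, likewise (0.000753). Trim28, the corepressor of ZFP57, fell by 0.32 and 0.39 on the log2 scale (adjusted p = 0.00145 and 5.41e-05). Of the factors that copy or guard existing marks, Dnmt1, Zfp445 and Ctcf were called in no comparison. Uhrf1 was lower in the knock-out by 0.36 in CHIR99021 and 0.18 in DMSO on the log2 scale (adjusted p = 6.41e-05 and 0.021).

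A further list held 49 other imprinted genes and hosts or neighbours of imprinted genes, of which 37 were tested. CHIR99021 called 3 in the knock-out (2 higher, 1 lower), 8.11% against 7.06% of all genes, and 6 in parental cells (2 higher, 4 lower), 16.2% against 19.4%. The knock-out against parental cells called 10 in CHIR99021 (9 higher, 1 lower), 27% against 23.7%, and 5 in DMSO (3 higher, 2 lower), 13.5% against 6.75%. The first 3 of these shares were near those of all genes. Zdbf2, a paternally expressed zinc-finger gene, was the clearest, with 146 and 152 CPM in knock-out cells with CHIR99021, 127 and 132 CPM in knock-out cells with DMSO, 191 and 201 CPM in parental cells with CHIR99021 and 203 and 199 CPM in parental cells with DMSO. It was lower in the knock-out by a log2 fold change of -0.40 ± 0.04 in CHIR99021 and -0.64 ± 0.04 in DMSO (adjusted p = 6.78e-05 and 2.17e-05). Atp10a, a phospholipid flippase, fell with CHIR99021 by 0.65 in the knock-out and by 1.30 in parental cells on the log2 scale (adjusted p = 0.0225 and 0.000168). In parental cells Gpr1, a chemerin receptor beside Zdbf2, fell by 1.25 and Ddc, the aromatic amino acid decarboxylase beside Grb10, by 0.55 on the log2 scale (adjusted p = 0.00697 and 0.00184). In CHIR99021 the knock-out was higher in Ampd3, an AMP deaminase, by 0.52 ± 0.09 and in Igf2os, the antisense RNA of Igf2 at 1 to 14 counts per library, by 3.49 ± 0.77 (adjusted p = 0.00171 and 0.00707). Igf2os lay near the filter on counts, so its p-value may depend on the same counts that let it be tested. The same holds for its place among the 10 genes called in that comparison. Igf2os overlaps Igf2 by 98 exon bases on the opposite strand, and Mest overlaps Copg2 by 912. The strand setting of the counting is not given in the sources used here, so reads may be shared within such pairs.

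Promoter sequences show what the members have at their starts. RefSeq windows of 250 bases before a transcript start (GRCm38.p6) were found for 30 of the 36 genes, 48 windows in all. They held a median of 10 CG dinucleotides, against 6 over all 32851 windows of the genome. The ZFP57 hexamer TGCCGC, or GCGGCA on the other strand, was in 7 of the 48, which is 14.6%, against 8.68% of all windows. These windows belong to 6 of the 30 genes, Mest, Plagl1, Meg3, Mcts2, Nap1l5 and Zim1. Mest counts with overlapping windows, from 30737800 and from 30737803, that hold the same hexamers. Zim1 was called in no comparison and Nap1l5 was not tested. The shares were not adjusted for the higher CG count of the members' windows. The TCF/LEF core CTTTGAT, or ATCAAAG on the other strand, was in none of the 48 and in 3.21% of all windows. These are descriptions of short windows and say nothing of binding, also because enhancers lie elsewhere. The most CG-rich window of 4 genes with large changes is given 5′ to 3′ on the gene's strand, with the ZFP57 hexamer in capitals where it occurs.
Mest, chr6:30737800-30738049, plus strand: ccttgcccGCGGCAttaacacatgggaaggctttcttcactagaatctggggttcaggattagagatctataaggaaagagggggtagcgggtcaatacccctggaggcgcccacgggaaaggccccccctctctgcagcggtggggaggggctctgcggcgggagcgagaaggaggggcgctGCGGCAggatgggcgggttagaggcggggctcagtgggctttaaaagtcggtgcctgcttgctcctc
Plagl1, chr10:13090582-13090831, plus strand: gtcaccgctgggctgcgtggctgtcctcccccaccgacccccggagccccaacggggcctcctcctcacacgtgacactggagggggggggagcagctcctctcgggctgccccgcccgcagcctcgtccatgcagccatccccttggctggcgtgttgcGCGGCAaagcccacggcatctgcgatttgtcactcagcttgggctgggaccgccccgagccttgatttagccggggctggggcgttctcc
Grb10, chr11:12037421-12037670, minus strand: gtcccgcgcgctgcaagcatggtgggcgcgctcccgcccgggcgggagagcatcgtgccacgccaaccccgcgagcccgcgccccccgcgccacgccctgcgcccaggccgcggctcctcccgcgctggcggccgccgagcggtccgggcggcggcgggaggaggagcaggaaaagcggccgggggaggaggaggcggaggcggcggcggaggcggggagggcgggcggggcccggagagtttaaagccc
Sfmbt2, chr2:10372186-10372435, plus strand: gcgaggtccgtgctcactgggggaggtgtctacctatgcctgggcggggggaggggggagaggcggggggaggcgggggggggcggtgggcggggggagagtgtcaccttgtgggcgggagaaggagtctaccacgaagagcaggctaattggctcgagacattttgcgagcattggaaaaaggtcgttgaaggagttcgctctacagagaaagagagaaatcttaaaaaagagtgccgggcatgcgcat

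Mest has the hexamer at 2 places and Plagl1 at 1, while the Grb10 window, with 40 CG dinucleotides, has none, and neither has that of Sfmbt2, with 15. The windows of Peg3 and Usp29 overlap by 163 bases, because the genes start head to head, and are given to show the upstream sequence that a called and an uncalled member share. Capitals mark the shared stretch, which reads as its reverse complement in the other gene.
Peg3, chr7:6730420-6730669, minus strand: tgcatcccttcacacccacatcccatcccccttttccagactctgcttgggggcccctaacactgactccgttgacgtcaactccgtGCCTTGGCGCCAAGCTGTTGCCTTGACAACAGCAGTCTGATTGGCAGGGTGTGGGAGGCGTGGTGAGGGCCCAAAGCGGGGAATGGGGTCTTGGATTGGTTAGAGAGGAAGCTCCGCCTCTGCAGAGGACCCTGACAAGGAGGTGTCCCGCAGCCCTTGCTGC
Usp29, chr7:6730333-6730582, plus strand: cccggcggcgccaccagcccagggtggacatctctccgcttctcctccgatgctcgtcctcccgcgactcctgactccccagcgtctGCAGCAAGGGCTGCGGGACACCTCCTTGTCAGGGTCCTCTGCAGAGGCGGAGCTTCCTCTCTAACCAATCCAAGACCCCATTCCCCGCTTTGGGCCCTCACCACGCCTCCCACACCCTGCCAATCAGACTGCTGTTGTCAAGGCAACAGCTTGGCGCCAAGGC

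Peg3 fell with CHIR99021 in each line, by 0.39 on the log2 scale in the knock-out and by 0.70 in parental cells, while Usp29 was at -0.02 ± 0.27 and -0.09 ± 0.27. With 42 to 72 counts per library for Usp29, against 688 to 1117 for Peg3, a fall of that size in Usp29 could not be told from none.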

How the data were processed

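Polyadenylated RNA of 8 libraries, 2 for each of the 4 groups, was sequenced from a stranded library kit, per the labels' protocols. The authors deposited 1 table of estimated counts per Ensembl gene, not scaled between libraries. They were made with kallisto on GRCm38.p4, per the submitters' processing notes, which give no version, transcript set or strand setting. In each library 36.9 to 38.4% of the entries were not whole numbers, and these expected counts were rounded. Reads shared by similar transcripts are divided by such software, which matters for Snrpn. It may also matter for Gnas, which shares 19.9% of its 31-base words, mostly with Gm20721 at 795 to 1516 counts. Mest shares 22.0%, with Copg2 at 1772 to 2248 counts. For Igf2 it cannot be told, because Gm49394, with which it shares most, has no row in the count table.

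Genes were kept with edgeR's filterByExpr by group (minimum count 10, total 15), which held at least 99.905% of each library's counts, and libraries were scaled by TMM (factors 0.986 to 1.018). CPM was computed from these. The quasi-likelihood test (edgeR 4.0.16, R 4.3.3) was fitted on all 8 libraries with 1 mean per group, no covariate and 4 residual degrees of freedom, tests were 2-sided, and p-values were adjusted by Benjamini-Hochberg over the 17739 genes. Intervals of 95% on fold changes use those degrees of freedom. Intervals of summed counts cover counting error only. The procedure was tested on simulated data. Alternatives were relative log expression size factors, no filter, DESeq2 1.42.0, limma-voom (limma 3.58.1), the compared groups alone, the replicate number as a block and each library left out in turn.

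The members and lists were chosen with earlier results of these data known. Every member is accounted for. A member called in at least 1 comparison has its value in each library, except that Impact is given by its range. A tested member called nowhere has its range, and one below the filter its counts. Up to 6 genes with the smallest adjusted p were named from each further list. Dnmt1, Zfp445 and Ctcf were named outside that rule, for their role. Replicates differed by more than counting noise, with chi-square per degree of freedom of 3.23 to 4.73. Gene positions and overlaps come from GENCODE M21 and promoter windows from RefSeq.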

Additional observations from a re-analysis of the deposited data

Results flagged for a closer look

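In 5 members the response to CHIR99021 differed between the knock-out and parental cells by edgeR's interaction test, with adjusted p under 0.05. On the log2 scale, knock-out minus parental, the difference was 1.04 for Cdkn1c, 0.93 for Sfmbt2, 0.66 for Mest, -0.56 for Peg10 and 0.31 for Peg3. Sfmbt2 and Peg10 moved opposite ways in the lines, and their pairwise calls were made in each line. The differences of Cdkn1c, Sfmbt2, Mest and Peg10 were called in every fit that left out 1 library. That of Peg3 was called in none of them. With 2 libraries per group no check for a library that stands apart could be made.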

How the results depend on the processing

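Of the 50 calls of a member in a comparison, none changed direction under any alternative. None was lost with relative log expression size factors, no filter or limma-voom, 4 of 46 computed were lost with DESeq2 and 2 of 45 with the compared groups alone, and 18 were lost when some 1 library was left out. With no filter beyond 1 count the interaction called 9 members instead of 5, and the cause was not tested. With 1 library left out the counts ran from 4 to 9 for CHIR99021 in the knock-out, 9 to 11 for CHIR99021 in parental cells, 12 to 15 between genotypes in CHIR99021, 5 to 12 between genotypes in DMSO and 4 to 5 for the interaction. In those fits the group left with 1 library is assumed to vary like the others.

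With the replicate number as a block, the counts were 9 for CHIR99021 in the knock-out, 12 in parental cells, 13 between genotypes in CHIR99021, 12 between genotypes in DMSO, and 5 for the interaction, and no call was lost. The deviations of same-numbered libraries correlated by -0.06 to 0.10, so the numbers were not taken as pairs.

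The 2 libraries per group limit every test. Members of a few CPM carry larger SE than abundant ones. The counts hold no allele information, and the knock-out and the parental cells differ as lines.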
